A study of Mus musculus with 24 samples.

Results

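The mitochondrial ribosomal protein genes are the nuclear genes, named Mrpl for the large subunit and Mrps for the small subunit, whose proteins build the ribosome inside mitochondria. They were taken as every target ID (a transcript target of the array, read by 1 or more probes) whose name was MRPL or MRPS with a number and at most 1 letter from A to C. This gave 73 genes, 44 Mrpl and 29 Mrps, of 31483 target IDs in all. Transcript levels came from Illumina mouse bead arrays, 24 in number, in 8 groups of 3 samples. The groups were Cirh1a+/- heterozygotes and wild-type littermates at each of 4 stages, with whole embryos taken at E8.5 and E9.5 (E for embryonic day) and livers at E11.5 and E12.5. All animals were of the C57BL/6 JAX strain, and each heterozygote had 1 Cirh1a allele interrupted by a β-Geo gene trap, an inserted cassette that needs no Cre. Genotypes were read in yolk sac by PCR. Cirh1a encodes cirhin, a protein that assembles the small subunit of the cytosolic ribosome, and the comparisons ask whether heterozygotes differ from wild type at each stage. It is not stated if samples were single embryos or pools, so p-values measure only the spread between these samples.

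The mitochondrial ribosome translates the few proteins encoded by mitochondrial DNA, all of them hydrophobic subunits of the respiratory chain and of ATP synthase. Its RNAs come from the mitochondrial genome, whereas all of its proteins are made in the cytosol from nuclear genes and imported. Many of these proteins have a bacterial counterpart, and others were added to the mitochondrial ribosome in the course of evolution. Fetal liver, the site of blood formation at these stages, holds hepatoblasts and many erythroid cells. In tissue RNA, fewer cells of a type and less RNA per cell cannot be told apart.

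The samples carried the signs of their labels, with exceptions. Cirh1a in heterozygotes stood at 51.8% of the wild-type level (E8.5), 55.0% (E9.5) and 52.9% (E12.5), and every heterozygote array lay below every wild-type array. Cirh1a was not analysed here at E11.5. The median percentile of the hepatocyte markers with values, 7 at E8.5 and E12.5 and 8 at E9.5 and E11.5, was 91.8, 75.1, 95.7 and 98.95 from the earliest to the latest stage, and that of 9 erythroid markers was 82.0, 89.4, 97.8 and 99.4. At E11.5, heterozygote replicate 3 stood apart in cardiac muscle genes: the mean log2 level of 5 such markers was 9.26 on that array, against 7.58 and 7.29 on the heterozygote arrays 1 and 2 and 7.18 to 7.45 on the wild-type arrays. At E9.5 the mean log2 level of the hepatocyte markers was 8.53 to 9.20 in heterozygotes and 8.27 to 8.37 in wild type, and that of 6 neural markers was 7.66 to 7.79 in heterozygotes and 7.85 to 7.92 in wild type. At E8.5 the erythroid markers averaged 5.97 to 9.55 in heterozygotes and 8.28 to 9.10 in wild type, and the cardiac markers 7.75 to 8.78 in heterozygotes and 8.72 to 9.03 in wild type. The part of these cell types in the results was not tested. At E8.5 the sex of the samples went with genotype. Xist, which female cells express, was at 8.62 to 10.37 in heterozygotes and at 1.99 to 2.27 in wild type, and the Y-linked gene Eif2s3y was at 1.75 to 2.36 in heterozygotes and at 9.06 to 9.52 in wild type. Sex and genotype therefore cannot be told apart at E8.5. At E12.5 sex was unbalanced too, with Xist at 2.00 to 7.90 in heterozygotes and at 1.81 to 2.19 in wild type, and Eif2s3y at 2.62 to 8.54 in heterozygotes and at 8.69 to 8.85 in wild type. At E9.5 every array carried both transcripts. Xist was there at 9.34 to 10.14 in heterozygotes and at 10.12 to 11.13 in wild type. Eif2s3y was at 9.35 to 9.68 in heterozygotes and at 8.65 to 9.32 in wild type, without overlap. The Eif2s3y level thus went with genotype at E9.5 too, and its part in the results was not tested.

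Mitochondrial ribosomal protein genes were among the brightest target IDs of the arrays at every stage. Their level was described as a percentile among all target IDs of the same array, which needs no common scale between stages. A bead's brightness also depends on its probe, so the percentile orders signals and not numbers of RNA molecules. The median percentile of the members was 94.3, 93.6, 95.1 and 94.97 from the earliest to the latest stage. In the same order, 51 of 72, 54 of 73, 57 of 73 and 56 of 72 members lay in the top 10% of the array. The medians of the Mrpl and Mrps genes stood close together, at 94.2 and 94.6 at E8.5 and at 95.2 and 94.7 at E12.5.

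The top of the order was held by few genes. Mrps24, a small-subunit protein, was the highest member at all stages but E9.5, with mean percentiles of 98.9 ± 0.12, 98.1 ± 0.05, 99.1 ± 0.11 and 99.3 ± 0.03 in stage order (SD, n = 6 arrays each). At E9.5 the highest was Mrpl23, at 98.4 ± 0.09, with Mrpl28 and Mrpl12 next to it at 98.4 each, and these 3 did not differ beyond their spread. Mrpl12, the counterpart of the bacterial stalk protein L7/L12 that recruits translation factors, was among the top 3 members at every stage but E11.5. Mrps17 was among the top 3 at E11.5 and E12.5, and Mrpl36, the counterpart of a very small bacterial protein, was among them at E11.5 with a percentile of 98.8.

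The 3 lowest members were Mrpl32, Mrpl19 and Mrpl13 at E8.5, Mrpl21, Mrps14 and Mrps36 at E9.5, Mrpl32, Mrps14 and Mrpl19 at E11.5, and Mrpl32, Mrpl19 and Mrpl21 at E12.5. Mrpl32, a large-subunit protein that is cleaved by the mitochondrial m-AAA protease before it joins the ribosome, had percentiles of 7.22 ± 4.65, 18.2 ± 11.6, 13.2 ± 8.61 and 6.36 ± 2.37 in stage order. Its log2 level at E12.5 ran from 1.48 over a median of 1.60 to 1.69, and at E8.5 from 1.48 over 1.59 to 1.82. Mrpl19, Mrpl21, Mrpl32 and Mrps36 stayed below the median of all target IDs at every stage at which they had a value, so these 4 were not tested within a stage. Mrps36 had values on the 12 arrays of E9.5 and E11.5 alone, with mean percentiles of 16.8 and 41.2. The Mrps36 protein was later assigned to the 2-oxoglutarate dehydrogenase complex and not to the ribosome. Mrps14 passed the median at E8.5 and E12.5, and Mrpl13 at all stages but E8.5. The other 67 members passed at all 4 stages.

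Most members kept their place from stage to stage. Of the 72 members with values on all 24 arrays, 53 stayed within 5 percentile points over the 4 stages, and 64 did over the 3 later stages. The mean percentile over the liver stages was higher than over the embryo stages in 53 members and lower in 19, with a median difference of 0.657 points. The share of all target IDs that rose is not given here, so this count is not read as a trait of the members. The 5 largest differences belonged to Mrpl13 at 36.8 points, Mrps10 at 22.2, Mrpl3 at 15.1, Mrpl21 at 9.30 and Mrpl15 at 8.67. At the other end stood Mrpl45 at -6.49, Mrps14 at -5.81, Mrpl32 at -2.91, Mrps27 at -2.89 and Mrpl11 at -2.10. Mrpl21 and Mrpl32 read below the median of all target IDs at every stage. Their SDs over the 6 arrays of a stage were 7.86 to 21.1 points for Mrpl21 and 2.37 to 11.6 for Mrpl32. The differences of these 2 genes are therefore not read as a change.

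**Figure D1:**
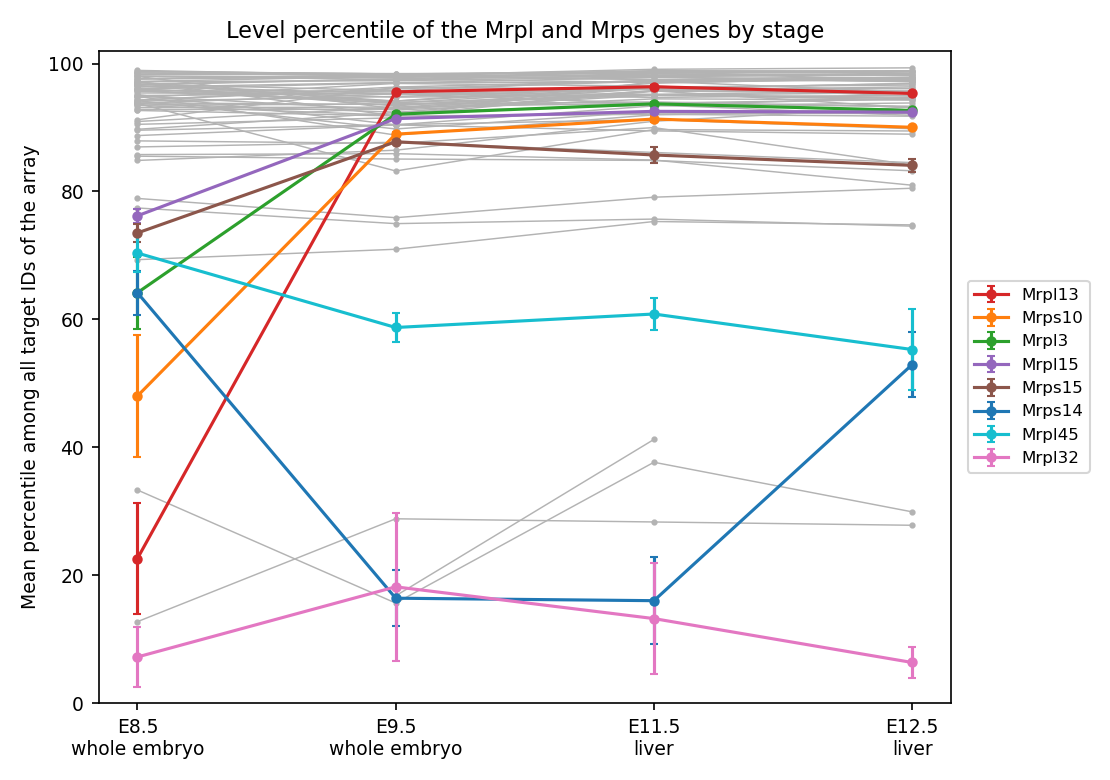
Mean percentile of each Mrpl and Mrps gene among all target IDs of its array (vertical axis, 0 to 100) at the 4 stages (horizontal axis); grey lines are single genes, coloured lines are 8 genes that moved most or lay lowest, and bars are the SD over 6 arrays. Most lines run flat above a percentile of 80, while Mrpl13, Mrps10, Mrpl3, Mrpl15 and Mrps15 start lower at E8.5.

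Several of these members read low at E8.5. In 7 members the percentile was over 10 points lower at E8.5 than at E9.5, and these were Mrpl3, Mrpl13, Mrpl15, Mrpl19, Mrpl32, Mrps10 and Mrps15. Mrpl19 and Mrpl32 lay below the median of all target IDs at every stage, so their differences are not read as a change. Of these 7, 5 were read by several probes, and 29 of the 73 members were. Mrpl13, the counterpart of bacterial L13, had percentiles of 22.6 ± 8.70, 95.6 ± 0.12, 96.4 ± 0.22 and 95.3 ± 0.13 in stage order. Mrps10 had 48.0, 89.0, 91.3 and 90.03, and Mrpl3 had 64.2, 92.1, 93.7 and 92.7. A percentile over 10 points higher at E8.5 than at E9.5 was found for Mrpl1, Mrpl21, Mrpl45 and Mrps14, of which Mrpl21 too lay below that median at every stage. Mrps14 stood at 64.2, 16.4, 16.02 and 52.9 in stage order, so its percentile was low at E9.5 and E11.5. The cause of the low signals at E8.5 was not tested.

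The E12.5 and E8.5 arrays share 1 distribution of values and could be compared on the log2 scale, as E12.5 liver minus E8.5 whole embryo over 12 arrays. Tissue and stage cannot be told apart in this comparison. Of 69 members tested, 56 differed (limma, adjusted p under 0.05), which is 81.2% of them, against 74% of all 14626 target IDs tested. The direction was not that of the table as a whole: 35 members were higher and 21 lower in E12.5 liver, while 29.5% of all target IDs were called higher and 44.5% lower. The median difference was 0.26 on the log2 scale over the members and -0.25 over all target IDs tested. Of 62 subunits of the respiratory chain and ATP synthase, chosen by name, 58.1% were higher and 21% lower, with a median of 0.32. The direction was thus not particular to the members. Of 58 cytosolic ribosomal protein genes, 27.6% were higher and 17.2% lower, with a median of 0.020. With only the 40 members read by 1 probe, 20 were higher, 7 were lower and 13 were not called, which is 67.5% called against 66.4% of all such target IDs, with medians of 0.20 and -0.29. All 29 members with several probes were called, 15 higher and 14 lower, against 85.9% of all 5747 such target IDs, 2377 higher and 2558 lower. Of the 69 members, Mrpl13 passed the level filter through E12.5 alone, so that it had to differ. It counts among the 35 higher members and the 15 higher ones with several probes. Over all target IDs, 12603 passed at E8.5 and 12603 at E12.5, against 14626 at either stage. Those that passed through 1 stage alone are favoured to be called by the filter. They enter every share of all target IDs in this comparison, here and below, and their number is not given. The E12.5 arrays and the E8.5 arrays differed in sex makeup too, and its part in the result was not tested.

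**Figure D2:**
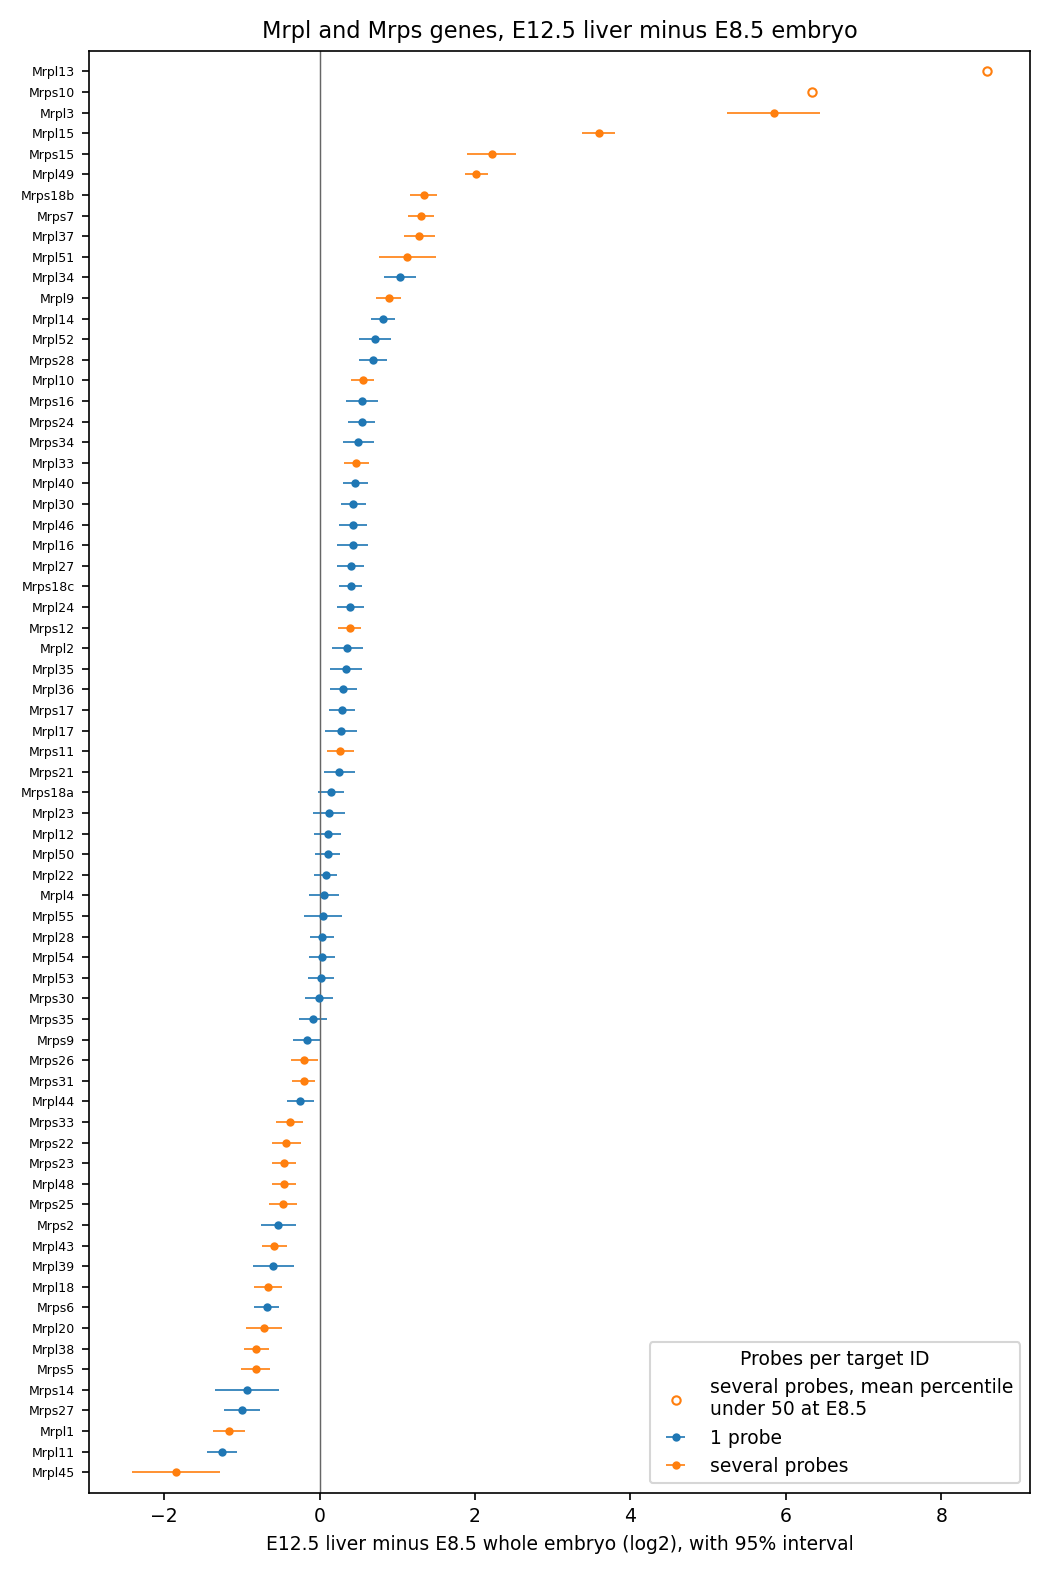
Difference in log2 level between E12.5 liver and E8.5 whole embryo (horizontal axis) for the 69 members tested (vertical axis, by size), with 95% intervals; blue genes have 1 probe per target ID and orange genes several. The open circles at the top are Mrpl13 and Mrps10, which read below the middle of the array at E8.5, so that their place shows a direction and no size. Among blue genes the range is from -1.25 for Mrpl11 to 1.03 for Mrpl34.

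Large-subunit proteins with a bacterial counterpart leaned towards liver, with 16 of 25 tested members higher and 4 lower. These are 64% and 16%, against 29.5% and 44.5% of all target IDs. The 16 include Mrpl13, which passed the level filter through E12.5 alone and so had to differ. The largest differences were those of the members that read low at E8.5. Mrpl13 ran from 10.53 over a median of 10.59 to 10.66 in E12.5 livers and from 1.77 over 1.98 to 2.22 in E8.5 embryos, so the groups were far apart. The E8.5 readings lay below the array-wide median of 2.65 and were not shown to be above background, so no size of the difference is given. Mrpl3 ran from 9.65 over 9.76 to 9.82 in E12.5 livers and from 2.98 over 3.89 to 4.83 in E8.5 embryos, a difference of 5.84 ± 0.273 (SE). The E8.5 readings of Mrpl3 were not shown to be above background either, so this size is uncertain. For Mrpl15, with 7 probes, the difference was 3.59 ± 0.0977. Outside these, Mrpl34, read by 1 probe, ran from 11.11 over 11.24 to 11.32 in E12.5 livers and from 9.88 over 10.23 to 10.38 in E8.5 embryos. Its difference was 1.03 ± 0.0948 (limma adjusted p = 6.15e-07), and the groups did not overlap. Mrpl9 was higher by 0.89 and Mrpl14, which sits at the face of the subunit that meets the small subunit, by 0.81. The 4 lower members were Mrpl11, Mrpl1, Mrpl20 and Mrpl18. Mrpl11, which with the ribosomal RNA forms the site where elongation factors bind, ran from 9.45 over 9.48 to 9.66 in E12.5 livers and from 10.67 over 10.70 to 11.03 in E8.5 embryos, without overlap. Its difference was -1.25 ± 0.0883 (limma adjusted p = 4.78e-08). Mrpl1, whose bacterial counterpart forms the stalk by which used tRNAs leave, differed by -1.17, Mrpl20 by -0.71 and Mrpl18 by -0.66. Mrpl12, Mrpl22, Mrpl23, Mrpl28 and Mrpl4 did not pass, with differences of 0.032 to 0.12.

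Large-subunit proteins without a bacterial counterpart split evenly, with 6 higher, 6 lower and 5 not called of 17. This is 35.3% in each direction, against 29.5% higher and 44.5% lower of all target IDs. Mrpl49, the largest of the higher ones, ran from 9.87 over 9.91 to 9.94 in E12.5 livers and from 7.83 over 7.88 to 7.97 in E8.5 embryos, a difference of 2.02 ± 0.0660 (limma adjusted p = 3.18e-11). Mrpl37 was higher by 1.29, Mrpl51 by 1.13 and Mrpl52 by 0.72. Mrpl45, a protein related to the import motor factor Tim44 that holds the ribosome at the inner membrane, was the member with the largest fall. It ran from 2.59 over 3.08 to 3.47 in E12.5 livers and from 3.92 over 4.94 to 5.65 in E8.5 embryos, a difference of -1.84 ± 0.259 (limma adjusted p = 3.39e-05). These are low levels, close to the median of 2.64 of all target IDs at E12.5. Mrpl38 differed by -0.81, Mrpl39 by -0.60, Mrpl43 by -0.58, Mrpl48 by -0.46 and Mrpl44, a protein with a ribonuclease III fold, by -0.25. Mrps30, named for the small subunit but found in the large subunit, did not pass, with -0.0095 ± 0.0830.

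Small-subunit proteins with a bacterial counterpart counted 10 higher and 4 lower of 15, which is 66.7% and 26.7%, against 29.5% and 44.5% of all target IDs. Mrps10 ran from 8.96 over 9.08 to 9.10 in E12.5 livers and from 2.34 over 2.47 to 3.35 in E8.5 embryos, without overlap. Its E8.5 readings lay around the median of all target IDs, and no size of the difference is given. Mrps15, which binds early to the small-subunit RNA in bacteria, differed by 2.22 ± 0.144. Both are among the members with a low reading at E8.5. Mrps7, which organises the head of the small subunit, was higher by 1.31, Mrps16 by 0.55, Mrps24 by 0.54 and Mrps12, a protein of the decoding centre, by 0.39. Mrps14, Mrps5, Mrps6 and Mrps2 were lower, with differences of -0.93, -0.82, -0.68 and -0.53 on the log2 scale. Mrps14, a protein of the head, ran from 2.51 over 2.89 to 3.08 in E12.5 livers and from 3.17 over 3.96 to 4.21 in E8.5 embryos, near the median of all target IDs.

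Small-subunit proteins without a bacterial counterpart were mostly lower, with 1 higher, 7 lower and 1 not called of 9. These are 11.1% higher and 77.8% lower, against 29.5% and 44.5% of all target IDs, so the table as a whole leaned this way too. Of the 7, Mrps26, Mrps31 and Mrps33 were not called with wild-type arrays only. Mrps27, a pentatricopeptide repeat protein, ran from 6.93 over 7.05 to 7.36 in E12.5 livers and from 7.91 over 8.04 to 8.29 in E8.5 embryos, without overlap. Its difference was -0.99 ± 0.106 (limma adjusted p = 2.63e-06). Mrps25 differed by -0.47, Mrps23 by -0.46, Mrps22 by -0.43, Mrps33 by -0.38, Mrps31 by -0.20 and Mrps26 by -0.20. Mrps34 was the one higher member, at 0.50 ± 0.0897 (limma adjusted p = 0.000273), and Mrps35 did not pass at -0.087. Of these 9 members 3 were read by 1 probe, and they gave 1 higher, 1 lower and 1 not called. The difference between the 4 classes was not tested, and the class medians were 0.36, 0.031, 0.29 and -0.38 in the order given here.

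**Figure D3:**
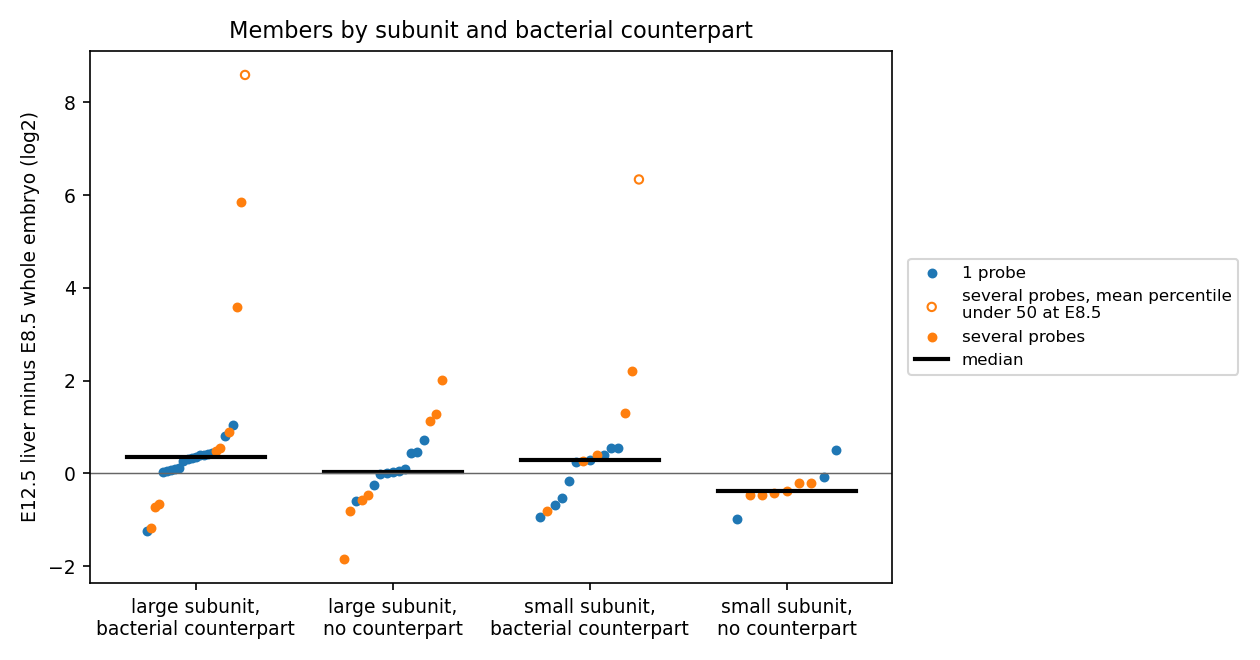
Difference in log2 level between E12.5 liver and E8.5 whole embryo (vertical axis) for the tested members in 4 classes by subunit and by presence of a bacterial counterpart (horizontal axis); points are genes, coloured by probe number, bars are class medians, and the open circles are Mrpl13 and Mrps10, which read below the middle of the array at E8.5. Most points of the class at the right, the small-subunit proteins without a counterpart, lie below 0, at a median of -0.38.

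Mouse has 3 paralogues of the bacterial protein S18, Mrps18a, Mrps18b and Mrps18c, which take different places in the ribosome, that of Mrps18a being in the large subunit. Each was set between E12.5 liver and E8.5 embryo, and the differences were not tested against each other. Mrps18b, with 3 probes, ran from 10.54 over 10.62 to 10.71 in E12.5 livers and from 9.12 over 9.31 to 9.44 in E8.5 embryos, a difference of 1.34 ± 0.0782 (limma adjusted p = 7.47e-09). Mrps18c differed by 0.40 ± 0.0680 (limma adjusted p = 0.000175). Mrps18a did not pass, at 0.15 ± 0.0768 (limma adjusted p = 0.106). The interval of Mrps18a ended at 0.31 and that of Mrps18b began at 1.17, whereas the interval of Mrps18c, from 0.25 to 0.55, overlapped that of Mrps18a. In percentile, Mrps18b stood at 90.9, 93.1, 95.8 and 95.4 from E8.5 to E12.5, and Mrps18a at 93.9, 93.6, 95.1 and 94.3.

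Of the other genes of mitochondrial gene expression, 53 target IDs were tested in the same comparison, and 13 were higher and 23 lower in E12.5 liver. These are 24.5% and 43.4%, near the 29.5% and 44.5% of all target IDs, and their median of -0.17 stood beside -0.25 for all target IDs. The 53 include 5 mitochondrial ribosomal proteins under other names, which the name rule for members did not take. Of these 5, 1 was higher and 1 lower, 20% each, with a median of -0.016, so they did not show the direction of the members. The 3 smallest p-values belonged to Dhx30, Trub2 and Tfb2m. Dhx30, a helicase of ribosome assembly, read below the middle of the array at E8.5 and is given no size. Like Mrpl13, it passed the level filter through E12.5 alone, so that it had to differ, and it counts among the 13 higher. Trub2, a pseudouridine synthase, was at 7.08 ± 0.167, and Tfb2m, a transcription factor of mitochondrial DNA, at -1.74 ± 0.0765. The E8.5 readings of Trub2, from 4.12 to 5.16, were not shown to be above background, so its size is uncertain. Dhx30 and Trub2 read low at E8.5 like Mrpl13, with median log2 levels at the 4 stages of 2.54, 11.41, 10.66 and 10.21 for Dhx30 and of 4.34, 13.88, 13.12 and 11.60 for Trub2. Among the translation factors, 1 was higher and 4 were lower of 8 tested, 50% lower against 44.5% of all target IDs. Mrrf, the ribosome recycling factor, was higher by 2.71, and Gfm1, an elongation factor, fell by 1.22. Among the mitochondrial aminoacyl-tRNA synthetases 4 were higher and 5 lower of 11, 36.4% and 45.5%, near the shares of all target IDs.

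The promoters of the members give the sequence behind these genes. RefSeq windows of 300 bases, 250 before to 50 after the start, were at hand for 64 members, 70 promoters in all, on build GRCm38.p6. Of these promoters, 12 held the motif of NRF1, a regulator of nuclear genes for mitochondria, read as GCGC and TGCGC with any 1 base between them. This is 17.1%, against 6.38% of 21263 promoters of protein-coding genes. The ETS motif CCGGAAGT, read by GABPA, was found in 12, which is 17.1% against 5.15%, and the YY1 motif AAGATGGCG in 7, which is 10% against 1.83%. The TATA box TATAAA was found in 5, which is 7.14% against 12.6%. Both strands were searched, and a match that overlapped another was counted. At least 1 of the first 3 motifs was found in 29 of the 64 genes, and in 41.4% of the member promoters against 12.47% of the protein-coding promoters. The median GC content of the windows was 58.5% for members and 56.3% for protein-coding genes.

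The 4 promoters printed here were chosen after their values were seen, as examples of members that carry these motifs. The values of the first 3 stand above, and those of Mrps11 follow the sequences. Mrps26 has 2 overlapping NRF1 matches and an ETS match, Mrps27 has an ETS and a YY1 match, Mrpl45 has 3 NRF1 matches, and Mrps11 has a YY1 match. Capitals mark the motif matches, on either strand, and each sequence runs 5′ to 3′ along its gene. The windows are chr2:130563507-130563806, plus strand, for Mrps26, chr13:99344536-99344835, plus strand, for Mrps27, chr11:97315466-97315765, plus strand, for Mrpl45, and chr7:78782881-78783180, plus strand, for Mrps11.
Mrps26: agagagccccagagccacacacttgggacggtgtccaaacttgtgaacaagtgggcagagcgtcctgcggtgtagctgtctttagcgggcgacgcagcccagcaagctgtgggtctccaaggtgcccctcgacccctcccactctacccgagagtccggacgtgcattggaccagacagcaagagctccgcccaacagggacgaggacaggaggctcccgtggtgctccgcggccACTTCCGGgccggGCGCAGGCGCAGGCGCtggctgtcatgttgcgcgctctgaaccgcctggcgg
Mrps27: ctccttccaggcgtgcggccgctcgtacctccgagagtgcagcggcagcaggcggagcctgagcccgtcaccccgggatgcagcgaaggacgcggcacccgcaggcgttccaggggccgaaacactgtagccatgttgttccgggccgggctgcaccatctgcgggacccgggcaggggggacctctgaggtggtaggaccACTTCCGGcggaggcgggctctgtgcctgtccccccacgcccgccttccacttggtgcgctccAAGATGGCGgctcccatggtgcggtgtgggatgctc
Mrpl45: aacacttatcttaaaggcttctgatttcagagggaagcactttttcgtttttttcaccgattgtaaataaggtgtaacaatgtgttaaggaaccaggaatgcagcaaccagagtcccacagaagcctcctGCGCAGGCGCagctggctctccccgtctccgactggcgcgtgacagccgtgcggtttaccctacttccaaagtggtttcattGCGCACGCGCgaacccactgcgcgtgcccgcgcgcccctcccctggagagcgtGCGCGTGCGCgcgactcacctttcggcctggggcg
Mrps11: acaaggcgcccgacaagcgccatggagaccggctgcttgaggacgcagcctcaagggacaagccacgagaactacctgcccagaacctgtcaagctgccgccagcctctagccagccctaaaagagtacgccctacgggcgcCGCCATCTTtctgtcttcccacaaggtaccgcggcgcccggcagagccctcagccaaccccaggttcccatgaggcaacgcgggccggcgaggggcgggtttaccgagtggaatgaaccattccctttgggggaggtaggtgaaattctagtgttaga

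Many members share their start region with another gene. A protein-coding gene on the opposite strand started within 1000 bases, head to head, for 21 of the 64 members, which is 32.8%, against 8.48% of 17492 protein-coding genes with a promoter. Mrpl46 and Mrps11 are such a pair, with starts 42 bases apart, so that the Mrps11 window printed above holds both starts. In E12.5 liver minus E8.5 embryo, Mrpl46 was higher by 0.43 ± 0.0810 and Mrps11 by 0.27 ± 0.0799. Of the 20 distinct pairs, 12 had both genes tested and 10 had both called, 6 in 1 direction and 4 in opposite directions. In this comparison 74% of all target IDs tested were called, so calls of both genes are common. Whether the genes of a pair move together was not tested, and the pairs below are examples of either kind. Mrps27 and Ptcd2, a mitochondrial RNA-processing gene with a start 108 bases away, differed by -0.99 and -0.97. Mrpl43 and Twnk, the mitochondrial DNA helicase, differed by -0.58 and -0.74. In contrast, Mrps12 was higher by 0.39 while Sars2, a mitochondrial seryl-tRNA synthetase with a start 147 bases away, differed by -0.59 ± 0.160. Mrpl18 differed by -0.66 and its neighbour Tcp1, a subunit of the cytosolic chaperonin, by 3.12.

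No member was called between Cirh1a heterozygotes and wild type at any of the 4 stages (limma, p adjusted over all target IDs tested). The share of all target IDs called was itself small, at 0.0238% of 12603 (E8.5), 0.00635% of 15741 (E9.5), 0% of 15734 (E11.5) and 0% of 12603 (E12.5). At an unadjusted p under 0.05 there were 0 of 68, 1 of 68, 3 of 68 and 0 of 69 members in stage order. The same rule took 3.77%, 11.1%, 2.63% and 3.86% of all target IDs. The 95% interval of the difference lay within 0.5 on the log2 scale of 0, a change of 41.4% at most, for 53 of 68, 68 of 68, 62 of 68 and 67 of 69 members in stage order.

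**Figure D4:**
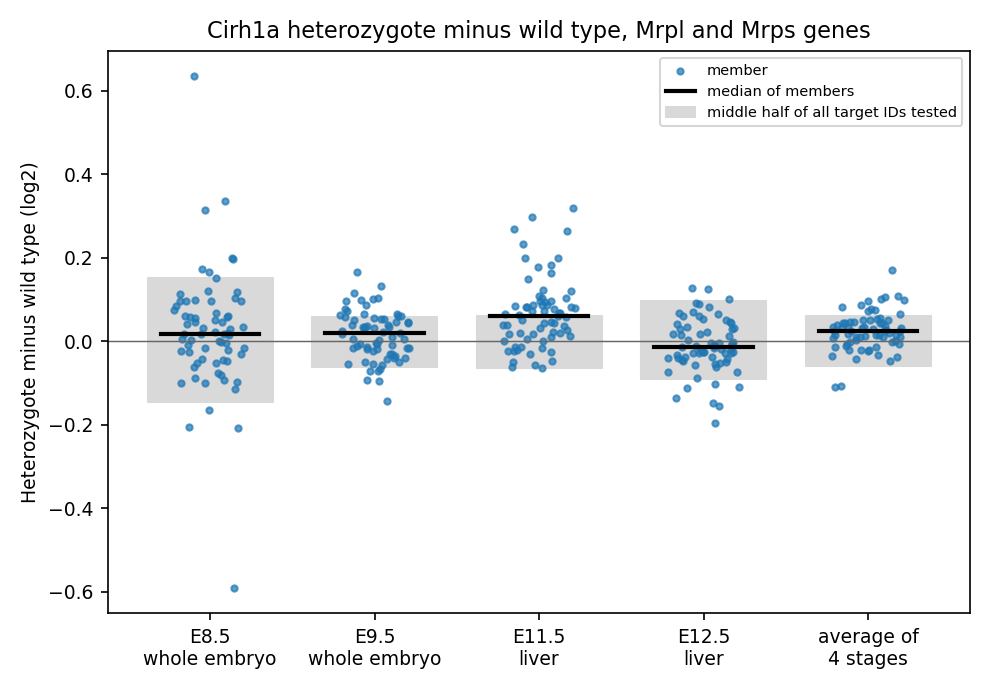
Cirh1a heterozygote minus wild type on the log2 scale (vertical axis) for each tested Mrpl and Mrps gene at the 4 stages and for the average of the stages (horizontal axis); points are genes, black bars their medians and grey boxes the interquartile range of all target IDs tested. At E11.5 the median of the members is 0.062, at the upper edge of the grey box, and at the other stages it lies near 0.

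At E8.5, 41 of 68 members had a positive difference, which is 60.3% against 50.4% of all target IDs tested, with a median of 0.018. This direction rested on single arrays. Without heterozygote replicate 1 there were 30 positive members with a median of -0.020, without wild-type replicate 3 there were 31 with -0.011, and without heterozygote replicate 3 there were 55 with 0.090. Mrpl15 had 6.21, 6.48 and 6.00 in heterozygotes, against 5.96, 5.86 and 5.92 in wild type, and the groups did not overlap. Its difference was 0.31 ± 0.168. Mrpl11 had 11.03, 10.90 and 10.71 in heterozygotes, against 10.70, 10.67 and 10.67 in wild type, also without overlap. Such separation was found for 4 members, Mrpl11, Mrpl15, Mrpl22 and Mrpl24, all higher in heterozygotes, which is 5.88% against 3.96% of all target IDs in that direction. The 5 smallest p-values among the positive differences belonged to Mrpl15, Mrpl11, Mrpl3, Mrpl24 and Mrpl20, and among the negative ones to Mrps10, Mrpl39, Mrps2, Mrps7 and Mrpl14. Mrps10 had 2.45, 2.34 and 2.48 in heterozygotes, against 3.35, 2.47 and 3.23 in wild type, so the groups overlapped, at levels near the median of all target IDs at E8.5 of 2.65. Its difference was -0.59 ± 0.253 (limma adjusted p = 1.00), and in the joint fit over 24 arrays, which assigns 1 spread to all stages, the adjusted p was 0.0471.

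At E9.5 the arrays were the closest to each other, with Pearson correlations of 0.996 to 0.997, and 39 of 68 members had a positive difference, 57.4% against 50% of all target IDs, with a median of 0.019. Without heterozygote replicate 3 there were 33, with a median of -0.0053. The Eif2s3y level went with genotype at this stage, and with Y-linked expression as covariate there were 45, with a median of 0.030. Mrpl38, the large-subunit protein with the smallest p, had 11.42, 11.46 and 11.46 in heterozygotes, against 11.31, 11.34 and 11.30 in wild type. The groups did not overlap, and the difference was 0.13 ± 0.0506 (limma adjusted p = 0.374), the 1 member (1.47%) with an unadjusted p under 0.05 and higher in heterozygotes, against 5.2% of all target IDs. Mrpl2, which lies at the peptidyl transferase centre in bacteria, had 11.21, 11.16 and 11.23 in heterozygotes, against 11.06, 11.11 and 11.08 in wild type. On the negative side, Mrpl39 had 8.44, 8.27 and 8.49 in heterozygotes, against 8.51, 8.54 and 8.58 in wild type, a difference of -0.14 ± 0.0665. Groups without overlap numbered 5. Mrpl2 and Mrpl38 were higher in heterozygotes, which is 2.94% against 8.33% of all target IDs, and Mrpl39, Mrps2 and Mrps33 were lower, which is 4.41% against 9.27%. The other members named by rank of p were Mrps27, Mrps6 and Mrps10 with differences of 0.17, 0.096 and 0.086, and Mrpl51 and Mrpl33 with -0.093 and -0.071.

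At E11.5, the first liver stage, 55 of 68 members had a positive difference, 80.9% against 49.6% of all target IDs tested. The median was 0.062 on the log2 scale. Mrpl20, with the smallest p, had 11.34, 11.32 and 11.31 in heterozygotes, against 10.92, 11.19 and 11.15 in wild type. The groups did not overlap, and the difference was 0.23 ± 0.0886 (limma adjusted p = 1.00). Mrpl40 had 11.52, 11.74 and 11.65 in heterozygotes, against 11.38, 11.46 and 11.48 in wild type, and Mrps18c had 12.11, 12.06 and 12.13 in heterozygotes, against 11.44, 11.89 and 12.02 in wild type. In Mrpl20, Mrpl40 and Mrps18c, wild-type replicate 1 was the lowest array. These 3 genes (4.41% of members) had an unadjusted p under 0.05 and were higher in heterozygotes, against 1.26% of all target IDs. Groups without overlap numbered 4, these 3 and Mrpl24, all higher in heterozygotes, which is 5.88% against 4.14%. Mrps16 and Mrpl30 differed by 0.27 and 0.16, and on the negative side Mrpl36, Mrpl28, Mrps17, Mrpl35 and Mrps27 differed by -0.063 to -0.048.

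The preponderance of positive differences at E11.5 rested on few arrays. The median deviation of the 68 members from the wild-type mean was 0.046, 0.13 and 0.032 on the heterozygote arrays, against -0.063, 0.0084 and 0.071 on the wild-type arrays, so wild-type replicate 3 lay above 2 of the heterozygote arrays. Without wild-type replicate 1, 42 of 68 members had a positive difference, with a median of 0.028, and without heterozygote replicate 2 there were 45, with a median of 0.024. Without heterozygote replicate 3, the array with the high cardiac genes, there were 58, with a median of 0.081. With Y-linked expression as covariate there were 59, with a median of 0.066. Subunits of the respiratory chain and ATP synthase, chosen by name, moved beside the members, with 56 of 66 positive and a median of 0.14. Without wild-type replicate 1 these were 41 of 66, with a median of 0.028. Of the cytosolic ribosomal protein genes, 47 of 73 were positive, with a median of 0.033, and without wild-type replicate 1 these were 32 of 73, with a median of -0.011.

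**Figure D5:**
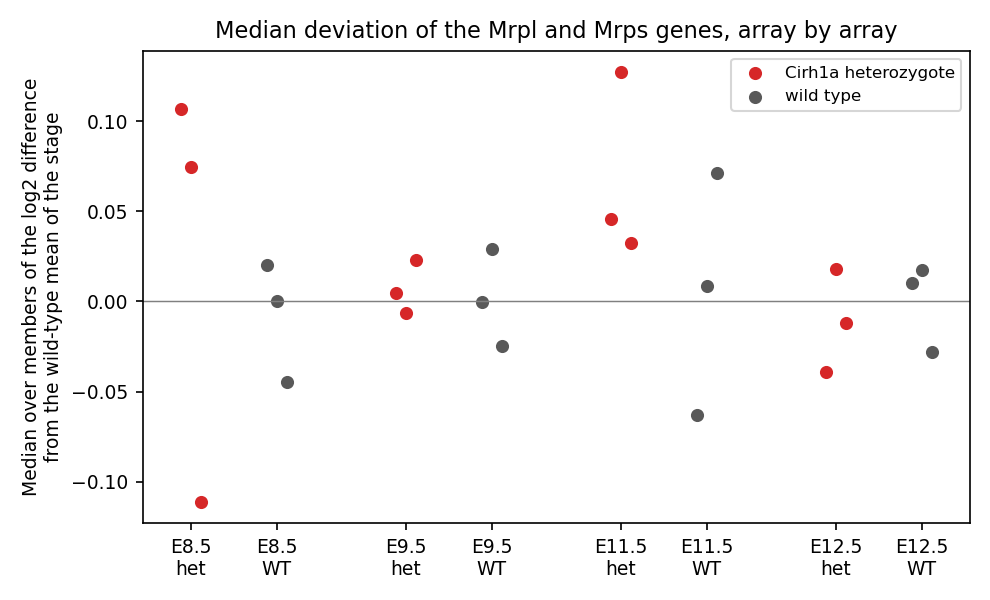
Median over the tested Mrpl and Mrps genes of the log2 difference from the wild-type mean of the stage (vertical axis) for each of the 24 arrays (horizontal axis, heterozygotes left of wild type at each stage). At E11.5 the heterozygote arrays sit at 0.032 to 0.13 and the wild-type arrays at -0.063 to 0.071, so the 2 groups overlap.

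At E12.5, 26 of 69 members had a positive difference, 37.7% against 50.7% of all target IDs, with a median of -0.013. Without heterozygote replicate 1 there were 36, with a median of 0.0090, and without wild-type replicate 3 there were 21, with a median of -0.029. With Y-linked expression as covariate there were 37, with a median of 0.011, so the direction of the median was not stable. Mrpl14 had 10.85, 10.82 and 10.77 in heterozygotes, against 10.96, 10.97 and 10.96 in wild type, a difference of -0.15 ± 0.0811. Mrps18b had 10.65, 10.71 and 10.69 in heterozygotes, against 10.54, 10.59 and 10.54 in wild type, a difference of 0.13 ± 0.0811 (limma adjusted p = 1.00 for both). Groups without overlap numbered 7. Mrpl13, Mrpl38, Mrps18b and Mrps31 were higher in heterozygotes, which is 5.80% against 3.52%, and Mrpl14, Mrpl28 and Mrps12 were lower, which is 4.35% against 3.6%. The other members named by rank of p were Mrps15, Mrpl51 and Mrpl20, at -0.20, -0.15 and -0.14, and Mrpl39, Mrpl1, Mrpl23 and Mrpl38, at 0.13, 0.10, 0.092 and 0.089.

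Averaged over the 4 stages in 1 fit of 24 arrays, 51 of 69 members had a positive difference, 73.9% against 50.3% of 16402 target IDs, with a median of 0.026 on the log2 scale. With single arrays left out the median ran from 0.012, without E11.5 wild-type replicate 1, to 0.042, without E8.5 heterozygote replicate 3, and with Y-linked expression as covariate it was 0.052. It was 0.016 without E8.5 heterozygote replicate 1 and 0.017 without E8.5 heterozygote replicate 2, E8.5 wild-type replicate 3 or E11.5 heterozygote replicate 2. None was called, and none of all target IDs was (0%). At an unadjusted p under 0.05 there were 2 members, which is 2.90% against 5.36%. They were Mrpl15, at 0.11 ± 0.0494, and Mrpl13, at 0.097 ± 0.0413 (limma adjusted p = 0.926 for Mrpl15 and 0.907 for Mrpl13). Both include E8.5 arrays on which they read low, and Mrpl13 had 2.19, 1.99 and 2.22 in heterozygotes, against 1.96, 1.77 and 1.82 in wild type there, levels below the median of all target IDs. Mrpl40, Mrps18b and Mrps16 followed with 0.077, 0.10 and 0.11. On the negative side stood Mrpl51 and Mrps10, each at -0.11, and Mrps2, Mrps7 and Mrps17, at -0.048 to -0.035. The intervals of all 69 members lay within 0.5 of 0.

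The effect of heterozygosity in liver, less the effect in whole embryo, was positive in 35 of 69 members and negative in 34, which is 50.7% positive against 48.7% of 16402 target IDs. No member was called, against 0.0061% of all target IDs, and 1 had an unadjusted p under 0.05, which is 1.45% against 4.87%. That was Mrpl39, at 0.28 ± 0.135 (limma adjusted p = 0.998). Among the other genes of mitochondrial gene expression, none was called between genotypes in the fit of any stage, in the average or in liver less embryo. The 3 smallest p-values at E8.5 were those of Mrm2, a methyltransferase of mitochondrial ribosomal RNA, at -0.93 ± 0.265, Ears2 at 0.32 ± 0.134 and Lrpprc, a factor of mitochondrial mRNA stability, at 0.80 ± 0.335. At E9.5 they were those of Rcc1l at 0.19, Wars2 at -0.14 and Nsun4 at -0.12, and at E11.5 those of Vars2 at -0.19, Tsfm at -0.22 and Slirp at 0.45. At E12.5 they were those of Mrm2 at -0.65, Ears2 at -0.68 and Afg3l2 at -0.21. For the average Mrm2, at -0.36 ± 0.0871 (limma adjusted p = 0.431), Mrm1 at -0.24 and Dhx30 at 0.15, its low E8.5 readings included, came first, and for liver less embryo Dhx30 at -0.37, Ears2 at -0.48 and Lrpprc at -0.51.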

How the data were processed

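RNA of 24 samples was purified on Qiagen columns and labelled with the Ambion MessageAmp kit, per the labels' protocols. The values used are the authors' deposited log2 expression values. Background correction, normalization method and software are not given in the sources used here. By their values, E12.5 and E8.5 arrays have 1 common distribution, unlike the other stages, so genotypes were compared within stages. A further 4 deposited tables of unnormalized signal, with 48 columns whose names match no label, were not used, except their probe identifiers. Target IDs were named by RefSeq symbol or synonym.

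Fits used lmFit and eBayes (no trend) of limma 3.58.1 under R 4.3.3, within each stage as heterozygote minus wild type, on target IDs above the median level of the stage, and p-values were adjusted by Benjamini-Hochberg over all of these. The joint fit took all 24 arrays, and E12.5 minus E8.5 had genotype as covariate. Alternatives were the level filter, centring, quantile normalization, trend, a Y-linked covariate, a replicate block and leaving out each array. The scripts were tested on simulated data. Groups came from sample titles. Classes of members by bacterial counterpart and the other gene lists were written from general knowledge. Members and lists were chosen with earlier results of these data known. Genes were named by rank: those past the threshold, otherwise the 5 smallest p-values in each direction, the 3 highest and lowest percentiles of each stage, the 5 largest and smallest differences between liver and embryo, the Mrps18 paralogues, Mrps30 and Mrps36. The number of arrays limits the precision. At 3 arrays against 3, an exact test of 1 gene cannot go below p = 0.1.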

Additional observations from a re-analysis of the deposited data

How the results depend on the processing

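No member was called between genotypes within a stage under any alternative, apart from Mrps10 at E8.5, the 1 member called in the joint fit of 24 arrays, where 2 of the other mitochondrial gene expression target IDs were called too (Dhx30 and Mrm2). At E8.5 Dhx30 and the heterozygote arrays of Mrps10 read below the median of all target IDs. Dhx30 entered the joint fit through later stages alone, and that fit assigns 1 spread to all stages. The share of all target IDs called in it is not given here, so no result is drawn from these calls. With Y-linked expression as covariate, the E8.5 median of members was 2.07 and the differences of Mrpl14, Mrpl39 and Mrps10 turned to 0.57, 2.28 and 1.76, since sex and genotype cannot be told apart there. The same covariate turned Mrpl35 at E11.5 to 0.021, Mrpl39 at E12.5 to -0.011 and the average of Mrps7 to 0.022. With single arrays left out, the difference at E11.5 ran from -0.12 to 0.026 for Mrpl35, with 0.017 lacking wild-type replicate 3, and from -0.090 to 0.028 for Mrps27, with 0.0061 lacking wild-type replicate 2, and at E12.5 from -0.0034 to 0.22 for Mrpl39. None of these had passed the test. The median of members ran from -0.0053 to 0.025 at E9.5 and, for E12.5 minus E8.5, from 0.20 to 0.27 with single arrays left out. For E12.5 minus E8.5, the median was 0.20 with no level filter, and with 1-probe members only 27 were called, 20 higher and 7 lower, with a median of 0.20. Using wild-type arrays only, 46 of the 56 calls remained, and Mrpl2, Mrpl17, Mrpl36, Mrpl44, Mrps11, Mrps17, Mrps21, Mrps26, Mrps31 and Mrps33 were lost. Mrps26 was lost in 9 of 12 fits that left out 1 array. Other causes of these shifts were not tested.

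The correlations of the deviations of same-numbered heterozygote and wild-type arrays were 0.097 to 0.177 at E8.5, -0.079 to 0.020 at E9.5, -0.393 to -0.126 at E11.5 and 0.007 to 0.099 at E12.5, so at no stage was every pair over 0.1. At E8.5 every array still correlated best with the array of its own number, since other pairs ran from -0.136 to 0.038, which is a hint from the data and not from the design. With the replicate number as a block, 0 members were called at every stage, and 55 of 68 members were positive at E11.5, a count that the block cannot move in a balanced design.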
